A study of Mus musculus with 18 samples.

Results

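Extracellular nucleotides and adenosine are read by macrophages through purinergic receptors. P2Y receptors are G protein-coupled receptors for ATP, UTP, ADP, UDP and UDP-sugars, P2X receptors are ATP-gated ion channels, and the adenosine receptors Adora2a and Adora2b raise cAMP. Entpd1 (CD39) is an ectonucleotidase that cuts extracellular ATP and ADP down to AMP, from which other enzymes release adenosine. ATP released from stressed cells acts as a danger signal through P2X7, whereas adenosine restrains inflammatory cytokine release by macrophages.

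Here 9 purinergic receptors and Entpd1 were followed in bone marrow-derived macrophages (BMDMs) of female C57BL/6 mice, grown from marrow in L929 cell-conditioned medium. The 10 genes were taken by their symbols from a list, and all 10 were counted and tested, of 15486 gene symbols with a count and 11305 tested genes. The 18 RNA-Seq libraries fell into 6 groups of 3 biological replicates. Unstimulated BMDMs received neither LPS nor carboplatin, LPS-stimulated BMDMs received a single dose of LPS at 10 ng/ml for 3 h, and LPS-primed BMDMs received LPS at 100 ng/ml for 24 h. LPS-tolerant BMDMs were primed in this way and then received fresh medium with LPS at 10 ng/ml for 3 h. In 2 further groups, LPS-primed and LPS-tolerant BMDMs were pretreated with 25 µM carboplatin, a platinum compound that damages DNA, before priming. The paper describes the drug as present during the 24 h of priming. Its methods name no carboplatin in the fresh medium of the second dose. LPS-stimulated and LPS-primed BMDMs differed in both dose and time, which cannot be told apart, nor can the second dose be told apart from the change of medium and the added 3 h.

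Between 6869667 and 14708099 read pairs per library were counted on genes. All 7 macrophage markers used (Adgre1, Csf1r, Itgam, Cd68, Lyz2, Fcgr1 and Mertk) were tested in these libraries, and their summed normalized count ran from 113610 to 283355. The 6 genes listed to check the labels (Tnf, Il6, Il1b, Nos2, Cxcl10 and Saa3) summed to at most 1514 normalized counts in unstimulated BMDMs and to at least 72540 in every library that had received LPS. Saa3 alone took 4.14% to 5.61% of the counts on genes in libraries with priming and 0.108% to 0.176% in LPS-stimulated ones. The sum therefore does not speak for each of the 6 genes. The T and NK cell markers Cd3e, Cd3g, Cd8a and Ncr1, 2 of 5 neutrophil markers (Ly6g and Mpo), the mast cell markers Cpa3 and Ms4a2 and the platelet marker Gp9 were at 0 in all 18 libraries. The mast cell marker Kit, however, reached 42 reads in a library, and the platelet markers Ppbp, Itga2b and Gp1bb reached 202, 7 and 1. Markers of B cells reached 17 reads (Cd79b), those of dendritic cells 7 (Flt3 and Zbtb46) and those of fibroblasts 6 (Col1a2). The other neutrophil markers reached 14 reads for Camp, 3 for Ltf and 2 for Elane, and that list summed to at most 12.9 normalized counts. In bulk RNA, fewer cells of a type and less RNA per cell cannot be told apart.

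The genes lie at 6 places in the mouse genome (GRCm39, GENCODE vM39), 3 of which hold more than 1 of them. P2ry6 (chromosome 7, 100585308 to 100624173, minus strand) and P2ry2 (100640649 to 100663957, minus strand) are 16476 bases apart. P2rx7 (chromosome 5, 122781942 to 122830400, plus strand) and P2rx4 (122845541 to 122867803, plus strand) are 15141 bases apart. P2ry14 (chromosome 3, 59021276 to 59061134), P2ry13 (59114539 to 59118304) and P2ry12 (59123682 to 59170429) share the minus strand and lie inside Med12l, a gene of the opposite strand. Med12l had 0 to 3 reads in every library, and 294 of its exon bases overlap those of P2ry12. P2ry2, P2ry14, P2rx4 and P2rx7 share exon bases with annotated long noncoding RNAs of the opposite strand, and although the kit was a stranded one, the strand option of the counting is not given in the sources used here. Adora2a lies on chromosome 10 (75152560 to 75170628, plus strand), Adora2b on chromosome 11 (62139804 to 62157279, plus strand) and Entpd1 on chromosome 19 (40600810 to 40731585, plus strand).

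RefSeq promoter windows on GRCm39, from 250 bases before to 50 after a transcription start, were found for 8 of the 10 genes, all but P2ry6 and Adora2a. The windows were searched on both strands for the NF-κB consensus, the AP-1 motif TGANTCA, the cAMP response element TGACGTCA and the interferon-stimulated response core GAAANNGAA. Of 32851 windows of this length, 8.46% held the NF-κB consensus, 7.81% AP-1, 1.79% the cAMP response element and 8.56% the interferon core. The bases before the first GENCODE exon are shown for Adora2b, the gene with the highest mean RPKM among the 10, for the neighbours P2rx7 and P2rx4, and for P2ry12. Capitals mark AP-1 in P2rx7 and the NF-κB consensus, read on the other strand, in P2ry12. The windows of P2ry2, P2rx4, P2ry13, Adora2b and Entpd1 held none of the 4 motifs, and those of P2ry14 held AP-1 in 2 alternative windows.
Adora2b, chr11:62139560-62139803, plus strand: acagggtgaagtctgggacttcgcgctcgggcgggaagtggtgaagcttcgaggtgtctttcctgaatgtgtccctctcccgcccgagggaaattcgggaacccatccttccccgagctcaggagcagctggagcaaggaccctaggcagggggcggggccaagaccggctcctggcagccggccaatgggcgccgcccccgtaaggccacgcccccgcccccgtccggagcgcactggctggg
P2rx7, chr5:122781740-122781941, plus strand: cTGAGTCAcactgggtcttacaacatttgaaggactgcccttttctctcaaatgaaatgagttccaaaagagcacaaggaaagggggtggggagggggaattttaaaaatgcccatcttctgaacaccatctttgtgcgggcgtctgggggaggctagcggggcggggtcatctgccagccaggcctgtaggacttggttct
P2rx4, chr5:122845357-122845540, plus strand: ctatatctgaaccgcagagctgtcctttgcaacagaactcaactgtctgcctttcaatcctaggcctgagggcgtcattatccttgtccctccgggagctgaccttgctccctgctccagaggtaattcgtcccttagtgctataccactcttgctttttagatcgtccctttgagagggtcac
P2ry12, chr3:59170430-59170656, minus strand: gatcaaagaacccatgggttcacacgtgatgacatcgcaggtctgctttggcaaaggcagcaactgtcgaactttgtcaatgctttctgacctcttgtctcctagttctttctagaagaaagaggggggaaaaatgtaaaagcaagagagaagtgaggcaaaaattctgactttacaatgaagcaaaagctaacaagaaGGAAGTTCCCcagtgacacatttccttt

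Levels of different genes were compared as RPKM, that is, reads scaled by library depth and by the length of the GENCODE exons, so the values depend on the exon models used. In unstimulated BMDMs the highest mean was that of P2ry6, a UDP receptor, at 25.7 ± 2.50 RPKM (SD, n = 3), followed by the ion channel P2rx4 at 18.9 ± 1.58 and by Entpd1 at 13.9 ± 6.02. P2rx7 stood at 5.73 ± 0.864 RPKM and P2ry14, the UDP-glucose receptor, at 3.31 ± 0.153. Adora2a was the lowest, at 0.025 ± 0.022 RPKM. In LPS-stimulated BMDMs the order was led by Adora2b at 116 ± 25.3 RPKM, ahead of P2ry6 at 38.3 ± 0.564. After 24 h of priming P2rx4 led at 36.2 ± 9.17 RPKM, with P2ry6 at 18.8 ± 4.98 and Adora2b at 10.7 ± 3.47.

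**Figure D1:**
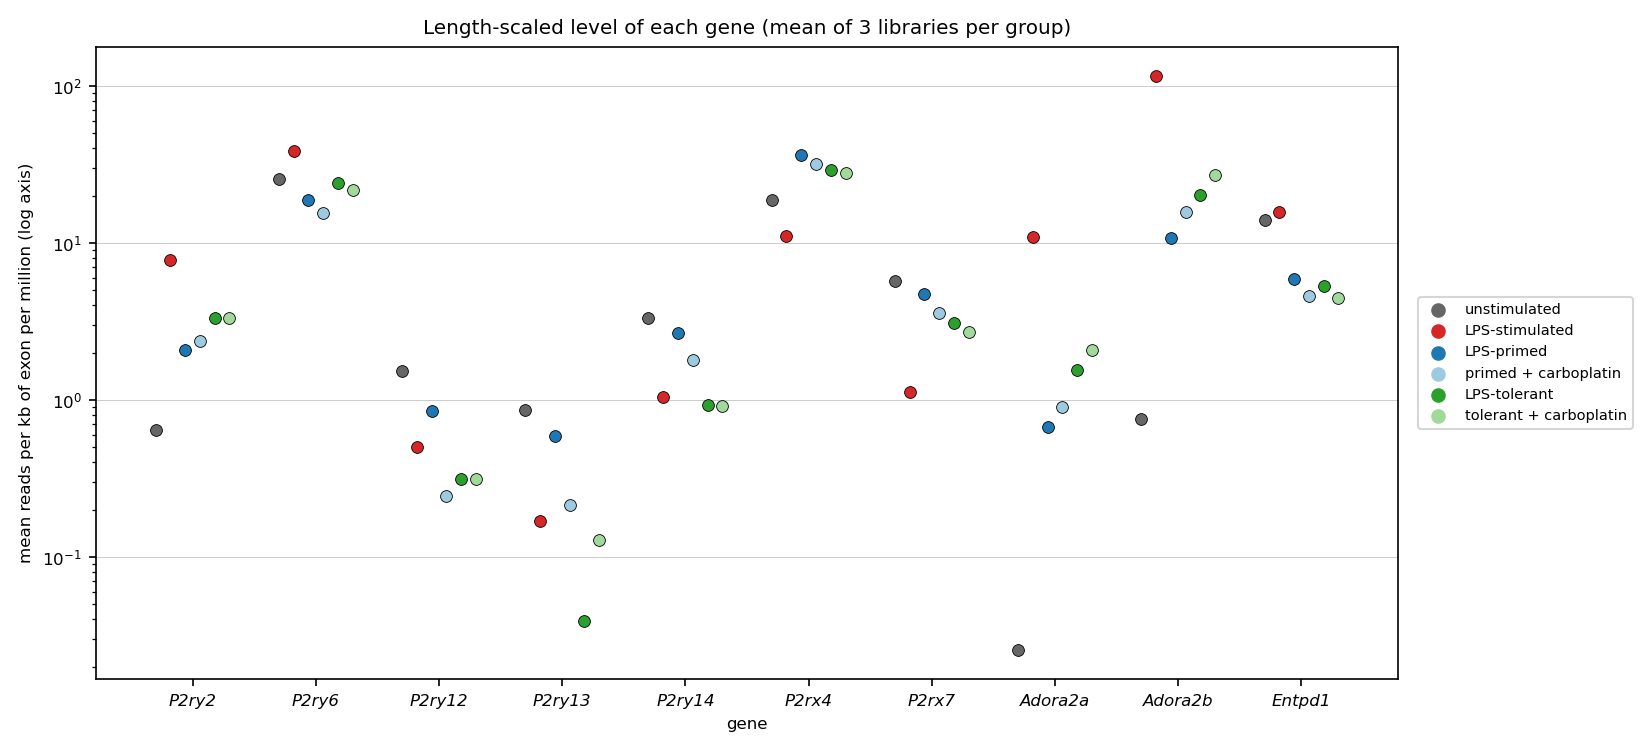
Mean RPKM of the 10 genes (log axis), 1 point for each of the 6 groups, each the mean of 3 libraries. Adora2b spans the range from 0.752 in unstimulated to 116 in LPS-stimulated BMDMs, whereas the means of P2ry6 stay between 15.4 and 38.3.

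The next sections give normalized counts, in which the reads of each library are brought to 1 common TMM-adjusted depth, so that 1 read is worth 0.692 to 1.35. They serve to compare libraries for 1 gene, not 1 gene with another.

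**Figure D2:**
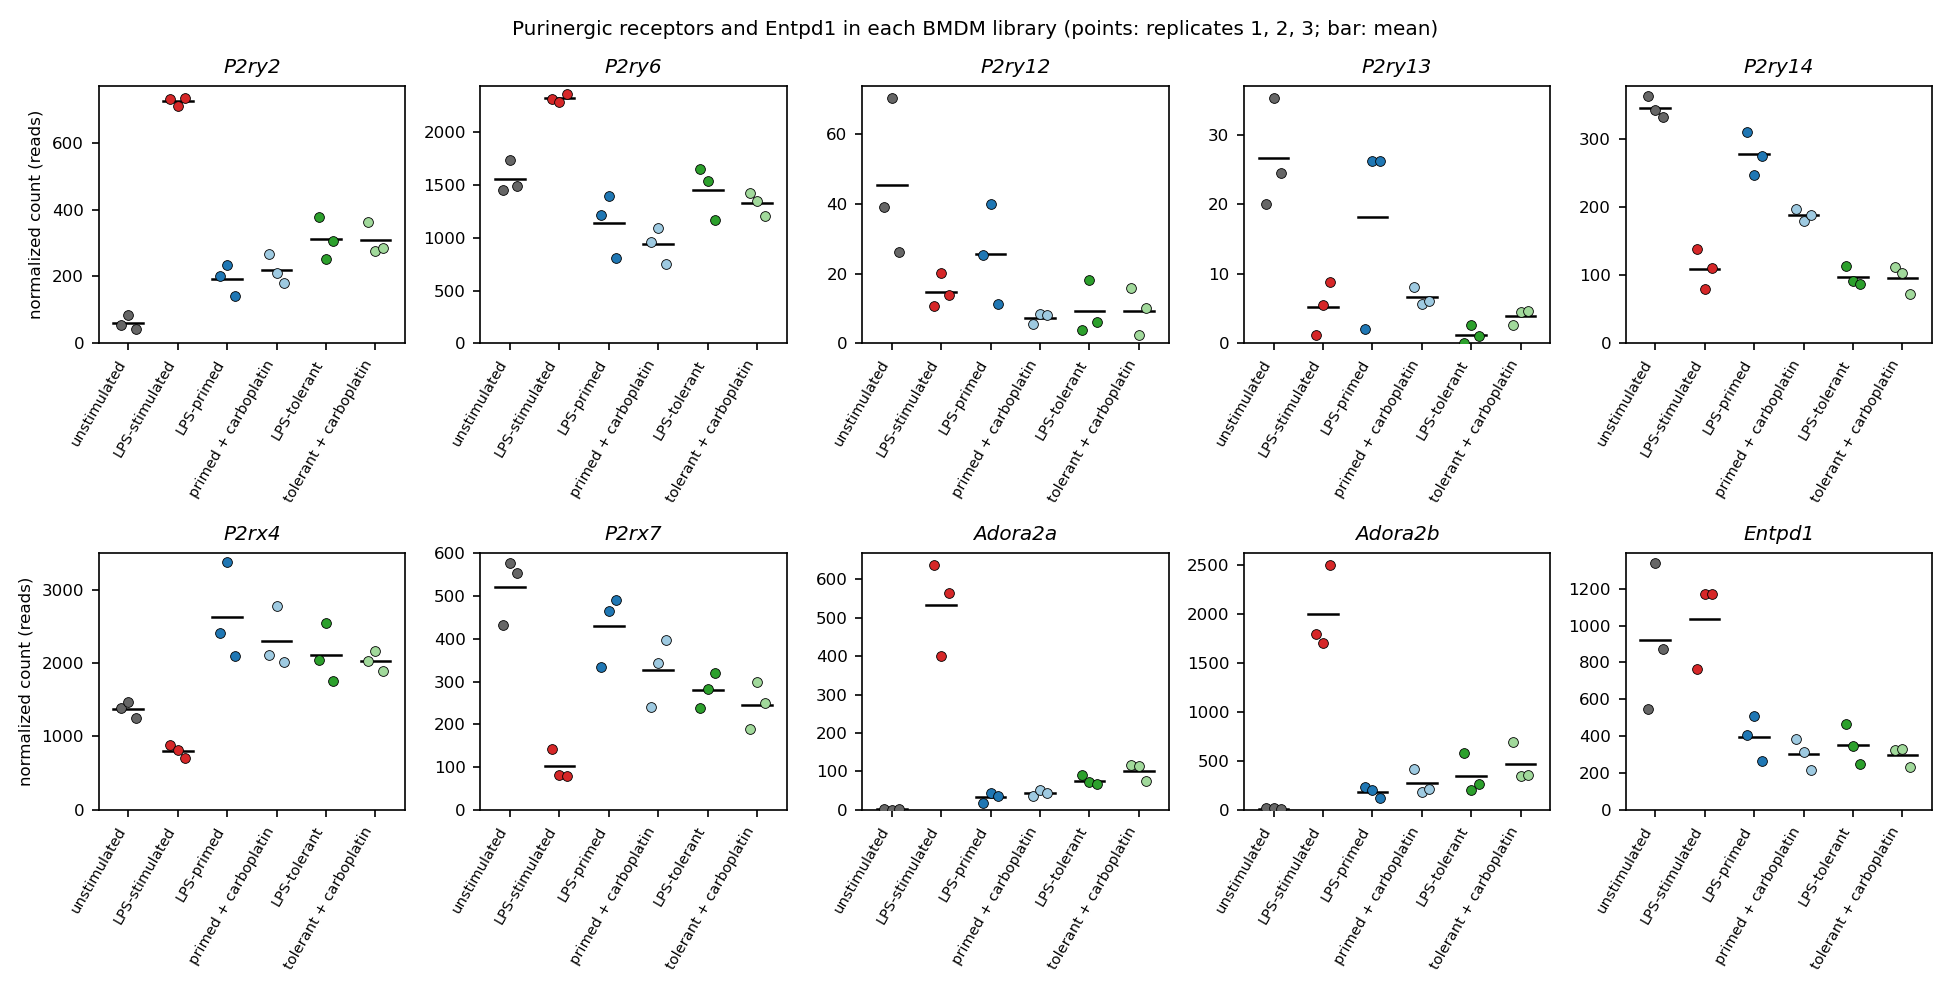
Normalized counts (reads, linear axis from 0) of each gene in the 18 libraries, with 1 point per library and a bar at the mean of 3. P2ry2, Adora2a and Adora2b have all 3 LPS-stimulated libraries far above the rest, and P2rx4 and P2rx7 have them lowest.

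The adenosine receptors were low in unstimulated BMDMs and high after LPS. Adora2b, the low-affinity receptor, gave 15.3, 17.2 and 6.36 normalized counts in unstimulated replicates 1 to 3 and 1797, 1703 and 2502 in LPS-stimulated ones. It gave 231, 206 and 117 in LPS-primed and 584, 206 and 258 in LPS-tolerant BMDMs. The unstimulated libraries lay below all others, the LPS-stimulated ones above all others, and LPS-primed and LPS-tolerant libraries overlapped, with LPS-tolerant replicate 1 high. With carboplatin the counts were 416, 179 and 214 in LPS-primed and 696, 342 and 352 in LPS-tolerant BMDMs, which overlapped the groups without it.

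Adora2a, the high-affinity receptor, had 2, 0 and 2 reads in the unstimulated libraries and 535, 580 and 572 in the LPS-stimulated ones, or 638, 401 and 564 normalized counts. LPS-primed BMDMs had 17, 39 and 38 reads of Adora2a and LPS-tolerant BMDMs 71, 83 and 65, or at most 44.4 against at least 66.9 normalized counts. The 4 groups did not overlap, and their order, from unstimulated through LPS-primed and LPS-tolerant to LPS-stimulated, was that of the Adora2b means. With carboplatin, Adora2a stood at 36.5, 51.7 and 44.3 in LPS-primed and at 117, 114 and 76.3 in LPS-tolerant BMDMs.

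P2ry2, a receptor for ATP and UTP, followed the same order. Its normalized counts were 53.5, 83.6 and 41.8 in unstimulated, 201, 235 and 143 in LPS-primed, 379, 251 and 305 in LPS-tolerant and 731, 711 and 735 in LPS-stimulated BMDMs. No group overlapped the next, although the highest LPS-primed library and the lowest LPS-tolerant one, both replicate 2, were close. With carboplatin the counts were 269, 211 and 181 in LPS-primed and 365, 276 and 287 in LPS-tolerant BMDMs.

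Its neighbour P2ry6 varied less. LPS-stimulated BMDMs gave 2318, 2290 and 2358 normalized counts, above every other library, and unstimulated BMDMs 1456, 1733 and 1488. LPS-primed BMDMs gave 1220, 1399 and 810, and LPS-tolerant BMDMs 1652, 1535 and 1167. The LPS-primed libraries lay below all unstimulated ones, and LPS-tolerant libraries overlapped both groups. Carboplatin libraries gave 964, 1093 and 754 in LPS-primed and 1423, 1353 and 1205 in LPS-tolerant BMDMs.

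P2ry12, P2ry13 and P2ry14 are Gi-coupled receptors of 1 cluster, the first and second for ADP and the third for UDP-sugars. P2ry14 was the best counted, with 363, 343 and 332 normalized counts in unstimulated and 310, 247 and 275 in LPS-primed BMDMs. It had 138, 80.3 and 110 in LPS-stimulated and 114, 91.6 and 86.5 in LPS-tolerant BMDMs. All libraries that had received LPS at 10 ng/ml within the last 3 h were thus below all those that had not, those with carboplatin included (197, 180 and 188 in LPS-primed, 111, 104 and 72.6 in LPS-tolerant BMDMs).

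P2ry12 had 41, 86 and 29 reads in unstimulated and 9, 29 and 14 in LPS-stimulated BMDMs, or 39.2, 70.5 and 26.4 against 10.7, 20.1 and 13.8 normalized counts. LPS-primed BMDMs had 24, 35 and 12 reads of P2ry12 and LPS-tolerant BMDMs 3, 21 and 6. At such depths counting error is wide, and of all pairs of neighbours in the order of the group means none was free of overlap. With carboplatin P2ry12 had 4, 9 and 8 reads in LPS-primed and 12, 2 and 11 in LPS-tolerant BMDMs.

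P2ry13 had 21, 43 and 27 reads in unstimulated, 1, 8 and 9 in LPS-stimulated and 0, 3 and 1 in LPS-tolerant BMDMs. In LPS-primed BMDMs replicate 1 had 2 reads of P2ry13, whereas replicates 2 and 3 had 23 and 28, so that this group spanned nearly the whole range. With carboplatin P2ry13 had 6 reads in each of the 3 LPS-primed libraries, and 2, 4 and 5 in LPS-tolerant ones. The 4 platelet markers used, which matter here because platelets carry P2Y12, summed to 0.819 to 3.82 normalized counts in unstimulated, 4.84 to 11.8 in LPS-stimulated, 34.7 to 218 in LPS-primed and 103 to 166 in LPS-tolerant BMDMs, and to 63.4 to 208 in the carboplatin groups. Ppbp reached 202 reads in a library, Itga2b did not exceed 7, Gp1bb did not exceed 1 and Gp9 had 0. The mast cell list, in which Kit alone had reads, summed to 10.7 to 40.1 in unstimulated, 7.89 to 13.1 in LPS-stimulated and at most 2.06 in the other libraries. The part of these cells in the results was not tested.

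The ATP-gated channels P2rx4 and P2rx7 were both lowest after a single dose of LPS and then parted. P2rx4 gave 1381, 1475 and 1247 normalized counts in unstimulated, 882, 816 and 704 in LPS-stimulated and 2412, 3373 and 2095 in LPS-primed BMDMs. LPS-tolerant BMDMs gave 2039, 2539 and 1752, which overlapped the LPS-primed range, and no primed library fell to the unstimulated level. With carboplatin P2rx4 stood at 2103, 2780 and 2009 in LPS-primed and 2031, 2165 and 1894 in LPS-tolerant BMDMs.

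P2rx7, the channel that drives NLRP3 inflammasome activation by ATP, gave 431, 577 and 554 normalized counts in unstimulated and 143, 81.6 and 79.9 in LPS-stimulated BMDMs. It gave 334, 466 and 490 in LPS-primed, which overlapped unstimulated BMDMs, and 238, 283 and 319 in LPS-tolerant BMDMs, below every LPS-primed library. With carboplatin it gave 240, 344 and 398 in LPS-primed and 189, 298 and 250 in LPS-tolerant BMDMs.

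Entpd1 was spread most among unstimulated replicates, with 547, 1341 and 875 normalized counts. LPS-stimulated BMDMs gave 767, 1170 and 1170, within that range. LPS-primed BMDMs gave 409, 507 and 264 and LPS-tolerant BMDMs 466, 345 and 250, which overlapped each other and lay below the other 2 groups. With carboplatin Entpd1 stood at 384, 314 and 213 in LPS-primed and 323, 331 and 231 in LPS-tolerant BMDMs.

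Comparisons between groups were read from an edgeR quasi-likelihood fit of all tested genes, with Benjamini-Hochberg adjustment and a call at an adjusted p under 0.05. Where every library of 1 group had 3 reads or fewer, the fold against 3 reads is given as a bound in place of the fitted log2FC. Several comparisons share a group of libraries, so their values stand side by side and were not correlated.

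Of the 10 genes, 9 changed between LPS-stimulated and unstimulated BMDMs, 4 higher and 5 lower, where 51.2% of all tested genes were called (24.3% higher and 26.9% lower). Adora2a was at least 199-fold higher (adjusted p = 5.04e-10), Adora2b had a log2FC of 7.25 ± 0.56 (SE; adjusted p = 2.13e-08), P2ry2 of 3.60 ± 0.27 (1.30e-08) and P2ry6 of 0.57 ± 0.19 (0.0165). P2ry6 was not called with library size alone as the scaling (log2FC 0.24, adjusted p = 0.265). The genes that fell were P2rx7, with a log2FC of -2.37 ± 0.26 (1.42e-06), P2rx4 with -0.77 ± 0.18 (0.00226) and all 3 receptors of the chromosome 3 cluster. Among these P2ry14 had a log2FC of -1.66 ± 0.21 (4.42e-06), P2ry13 of -2.29 ± 0.70 (0.0115) and P2ry12 of -1.58 ± 0.59 (0.0335). The call of P2ry12 was lost without unstimulated replicate 2 (adjusted p = 0.186) and without LPS-stimulated replicate 1 (0.0917) or 3 (0.0900). Entpd1 was not called, with a log2FC of 0.17 ± 0.32 (0.681), which turned to -0.078 without unstimulated replicate 1 and to -0.17 with library size alone. The median log2FC was -0.30 over the 10 genes and -0.09 over all tested genes. With library size alone, the median of all genes shifted to -0.43 here and to -0.26 in the comparison of LPS-primed with unstimulated BMDMs.

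After 24 h of priming, 5 of the 10 genes differed from unstimulated BMDMs, 4 higher and 1 lower, against 25.2% of all tested genes (12.1% higher and 13.1% lower). Adora2a was at least 12.2-fold higher (adjusted p = 6.43e-06), Adora2b had a log2FC of 3.81 ± 0.52 (3.67e-05), P2ry2 of 1.68 ± 0.26 (9.71e-05) and P2rx4 of 0.94 ± 0.18 (0.00104). Entpd1 fell, with a log2FC of -1.23 ± 0.33 (0.00972), a call that was lost without unstimulated replicate 2 (0.0849) or LPS-primed replicate 3 (0.056). P2ry6 had a log2FC of -0.45 ± 0.19 (0.0918), and it was called with the replicate number as a block (-0.47, adjusted p = 0.00928), without LPS-primed replicate 2 (0.037) and with library size alone (0.00766). With the block, 6 genes were called, against 38.6% of all genes. P2rx7 had a log2FC of -0.28 ± 0.25 (0.467), P2ry14 of -0.32 ± 0.20 (0.272), P2ry12 of -0.84 ± 0.57 (0.323) and P2ry13 of -0.55 ± 0.63 (0.585), none of them called. P2ry14 was called with library size alone (adjusted p = 0.0369). The median log2FC was -0.30 over the 10 genes and -0.02 over all genes.

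LPS-tolerant BMDMs were compared with LPS-stimulated BMDMs, which received the same final dose without priming. Here 7 of the 10 genes changed, 2 higher and 5 lower, against 34.5% of all genes (16.2% higher and 18.3% lower). Adora2a was lower in tolerant cells, with a log2FC of -2.81 ± 0.31 (adjusted p = 3.08e-06), and so were Adora2b with -2.52 ± 0.42 (0.000187), P2ry2 with -1.22 ± 0.24 (0.000714) and P2ry6 with -0.68 ± 0.19 (0.00927). The call of P2ry6 was lost without LPS-tolerant replicate 3 (0.0566). Entpd1 was lower as well, with a log2FC of -1.55 ± 0.33 (0.00141). Both ion channels were higher, P2rx7 with 1.48 ± 0.26 (0.0003) and P2rx4 with 1.40 ± 0.19 (2.18e-05). P2ry14 had a log2FC of -0.17 ± 0.21 (0.576) and P2ry12 of -0.63 ± 0.64 (0.486), or -1.56 without LPS-tolerant replicate 2 (0.133). P2ry13, at or under 3 reads in tolerant cells, was at least 1.65-fold lower on average with overlapping groups (0.146), or at least 1.06-fold without LPS-stimulated replicate 3. None of these 3 was called. The median log2FC was -0.95 over the 10 genes (-0.70 with P2ry13 at its bound) and 0.0026 over all genes.

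**Figure D3:**
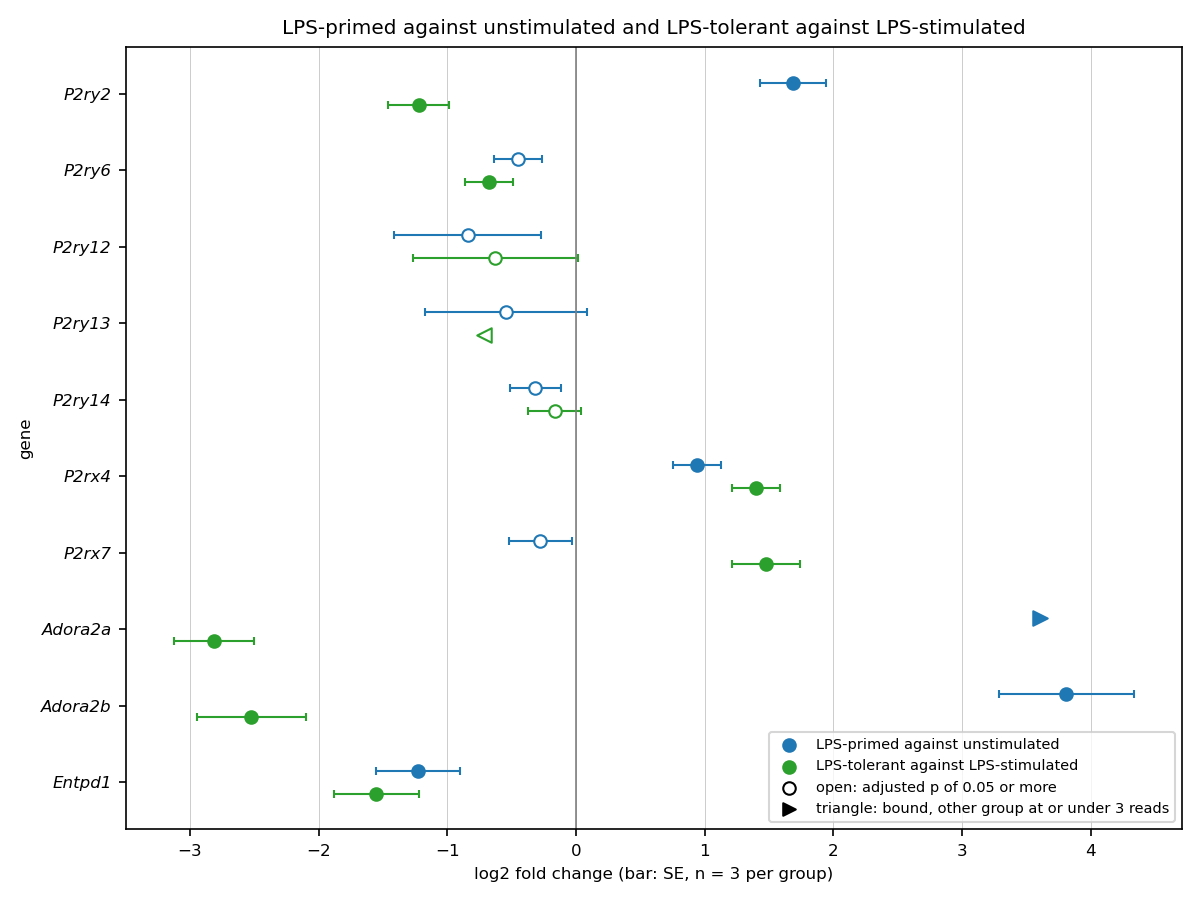
Log2FC of each gene in LPS-primed against unstimulated and in LPS-tolerant against LPS-stimulated BMDMs, with the SE as bars (n = 3 per group), filled where the adjusted p was under 0.05, and triangles for bounds. P2ry2, Adora2a and Adora2b lie above 0 in the first and below 0 in the second comparison, P2rx4 lies above 0 in both and Entpd1 below 0 in both.

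The response to the second dose was read from LPS-tolerant against LPS-primed BMDMs, where 3 of the 10 genes were called, 1 higher and 2 lower, against 6.31% of all genes (3.6% higher and 2.71% lower). P2ry14 fell, with a log2FC of -1.51 ± 0.21 (adjusted p = 0.000338), beside -1.66 for the first dose. P2ry13 was at least 5.76-fold lower (0.0201), though LPS-primed replicate 1 lay within the tolerant range. That call was lost without LPS-primed replicate 2 (0.0678) or 3 (0.0874), without LPS-tolerant replicate 1 (0.0678) or 3 (0.0844) and with limma-voom (0.106). In a fit of only the groups compared P2ry13 did not pass the filter and was not tested.

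Adora2a rose with a log2FC of 1.22 ± 0.33 (0.0347), with no overlap between groups. Its call was lost without LPS-primed replicate 1 (0.122) or 3 (0.0921), without LPS-tolerant replicate 1 (0.0999), 2 (0.0682) or 3 (0.0663), and under 3 further settings given below. P2ry2 had a log2FC of 0.69 ± 0.24 (0.101) and passed with the replicate block (0.70, adjusted p = 0.0215), where 4 of the 10 genes and 18% of all genes were called. Adora2b had a log2FC of 0.91 ± 0.42 (0.216), or 0.33 without LPS-tolerant replicate 1 (0.715), and P2ry12 of -1.37 ± 0.63 (0.225), or -2.29 without LPS-tolerant replicate 2 (0.102). P2rx7 had a log2FC of -0.62 ± 0.25 (0.16), P2ry6 of 0.34 ± 0.19 (0.311), P2rx4 of -0.32 ± 0.18 (0.352) and Entpd1 of -0.15 ± 0.33 (0.852). The median log2FC was -0.23 over the 10 genes and -0.01 over all genes.

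**Figure D4:**
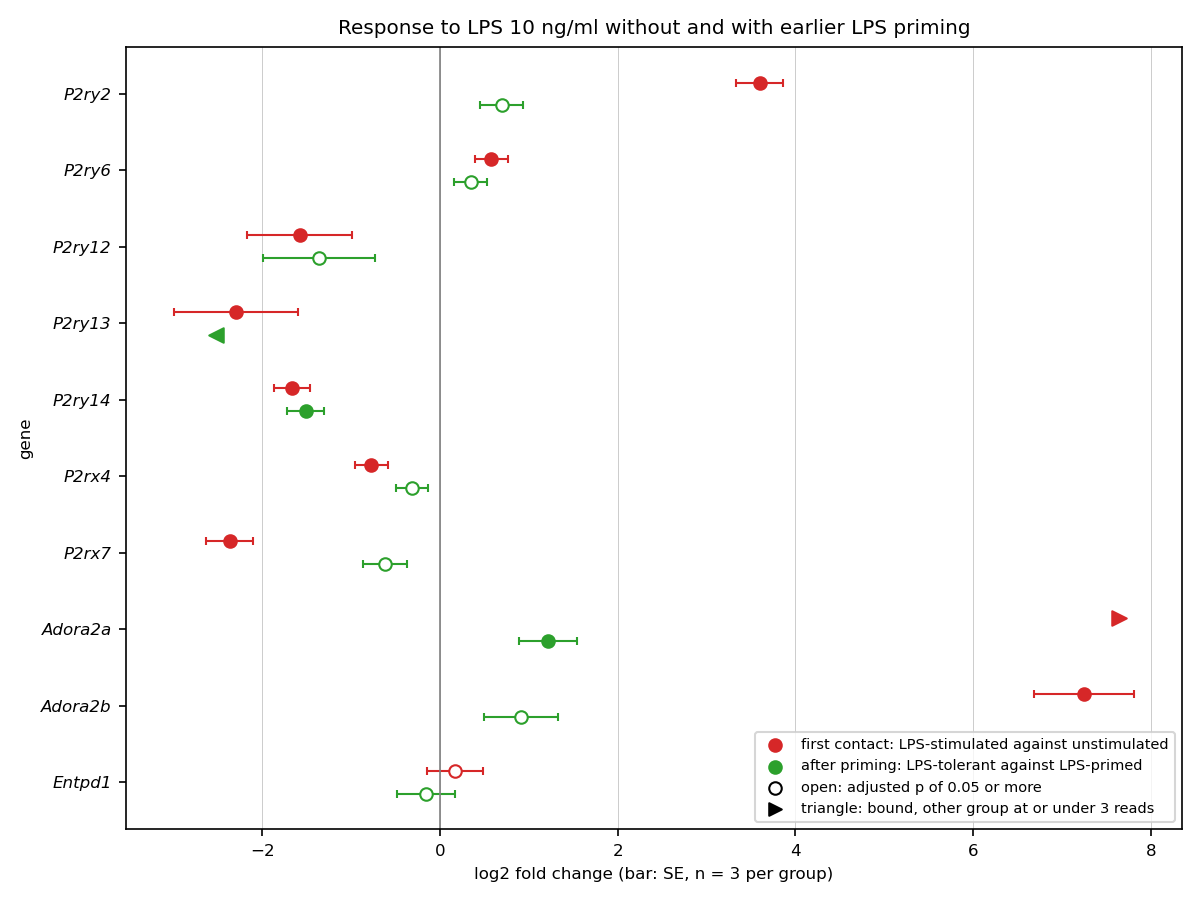
Log2FC after LPS at 10 ng/ml in BMDMs without priming (LPS-stimulated against unstimulated) and after priming (LPS-tolerant against LPS-primed), with the SE as bars (n = 3 per group), filled where the adjusted p was under 0.05, and triangles for bounds. P2ry14 lies at -1.66 and -1.51, whereas Adora2b lies at 7.25 and 0.91 and P2rx7 at -2.37 and -0.62.

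Whether the second response differed from the first was asked with an interaction contrast over 4 groups, which was called for 4 of the 10 genes, 1 higher and 3 lower, against 23.8% of all genes (10.5% higher and 13.3% lower). P2ry2 (a difference of log2FC of -2.91 ± 0.35, adjusted p = 1.09e-05) and Adora2b (-6.34 ± 0.67, adjusted p = 2.82e-06, and -6.93 without LPS-tolerant replicate 1) had smaller log2FCs at the second dose, and so did Adora2a (adjusted p = 1.24e-07), which was at least 199-fold higher after the first and 2.32-fold higher after the second. P2rx7 had a less negative log2FC at the second dose (1.75 ± 0.36, adjusted p = 0.00164). For P2rx4 the difference was 0.46 ± 0.26 (0.232) and for Entpd1 -0.32 ± 0.46 (0.666). The differences of P2ry6, P2ry12, P2ry13 and P2ry14 were not called either. Before the second dose primed BMDMs stood at mean normalized counts of 185 ± 59.7 for Adora2b, 32.7 ± 13.5 for Adora2a and 193 ± 46.6 for P2ry2 (SD, n = 3). After it they stood at 349 ± 205, 76.2 ± 12.1 and 312 ± 63.9, below the LPS-stimulated means of 2001 ± 437, 534 ± 121 and 726 ± 12.9.

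With carboplatin no call was made for any of the 10 genes, in either state. For carboplatin the study used a looser adjusted p, under 0.25, together with |log2FC| over 2. None of the 10 genes met these limits in edgeR, where the lowest adjusted p was 0.442 in LPS-primed and 0.962 in LPS-tolerant BMDMs. In LPS-primed BMDMs edgeR called 0 of 10 genes, against 0.372% of all genes. An unadjusted p under 0.05 was found for 2 of them and for 776 of all 11305 tested genes. DESeq2 called 0 with 2 at that unadjusted p, and limma-voom 0 with 1. These were P2ry12, with a log2FC of -1.75 ± 0.66 (adjusted p = 0.491), and P2ry14, with -0.56 ± 0.20 (adjusted p = 0.442). In both the 3 carboplatin libraries lay below the 3 others, and how many of all genes were separated in this way was not counted. With the replicate block 3 genes had an unadjusted p under 0.05 and the lowest adjusted p was 0.097, for P2ry14, with a log2FC of -0.55.

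In LPS-tolerant BMDMs 0 of 10 genes were called, against 0.425% of all genes, and 0 had an unadjusted p under 0.05 in edgeR, DESeq2 or limma-voom. Of all tested genes, 761 were at that unadjusted p in edgeR. Adora2a had a log2FC of 0.44 ± 0.34 in primed and of 0.42 ± 0.31 in tolerant cells, and Adora2b of 0.54 ± 0.42 and 0.41 ± 0.41. P2ry13, at 3 reads or fewer in each tolerant library without carboplatin, was on average at least 1.24-fold higher with it (adjusted p = 0.962). Its reads overlapped, with 2 to 5 in libraries with carboplatin and 0 to 3 in those without. Only after scaling for depth were the groups apart, at normalized counts of at least 2.62 with carboplatin and at most 2.59 without. The difference between the carboplatin effects in the 2 states was called for 0 of the 10 genes and 0% of all genes. In edgeR and in DESeq2 1 of the 10 genes, P2ry13, had an unadjusted p under 0.05 for that difference, and in limma-voom 0 did. Of all tested genes, 131 were at that p in edgeR.

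**Figure D5:**
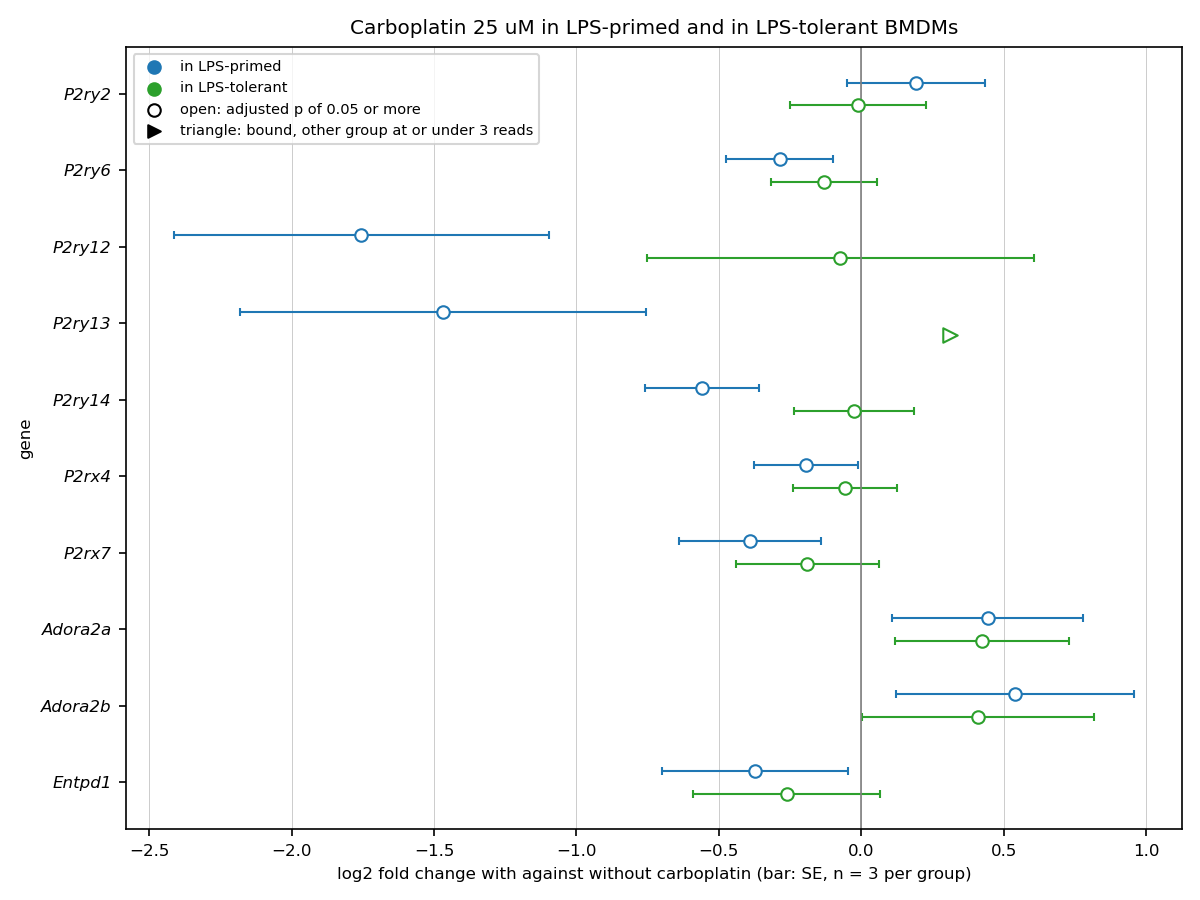
Log2FC with against without 25 µM carboplatin in LPS-primed and in LPS-tolerant BMDMs, with the SE as bars (n = 3 per group). All symbols are open, since no adjusted p was under 0.05, and the widest bars belong to P2ry12 and P2ry13, the genes with the fewest reads.

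A list of 37 other genes of purinergic signalling held 23 that were tested. Between LPS-primed and unstimulated BMDMs 8 of them were higher and 3 lower, that is, 11 of 23 against 25.2% of all genes. With the replicate block 9 were higher and 5 lower, against 38.6% of all genes. Cd38, which degrades extracellular NAD to ADP-ribose, had 0, 1 and 6 reads in unstimulated and 1006, 1733 and 2038 in LPS-primed BMDMs (log2FC 9.55 ± 0.50, adjusted p = 6.14e-10, and 11.52 without unstimulated replicate 3). Nt5e (CD73), which turns the AMP made by Entpd1 into adenosine, had 0 reads in all unstimulated libraries and 53, 4 and 12 in LPS-primed ones, at least 8.93-fold higher (0.0128). Without LPS-primed replicate 1 that bound was 2.95-fold and the call was lost (0.0703), as it was with limma-voom (0.0536). Gja1, the hemichannel protein connexin 43, had a log2FC of 6.22 ± 0.68 (3.27e-06), or 7.05 without unstimulated replicate 2. The genes that were lower were P2ry1, an ADP receptor, with -4.19 ± 0.73 (0.000383; -3.59 without unstimulated replicate 3), Enpp1 with -1.15 ± 0.40 (0.0432) and the nucleoside transporter Slc29a1 with -0.67 ± 0.18 (0.012). The calls of Enpp1 and Slc29a1 were lost without unstimulated replicate 2 (adjusted p = 0.136 and 0.0849), and that of Enpp1 also without unstimulated replicate 3 (0.0951) or LPS-primed replicate 1 (0.151) or 3 (0.141).

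Between LPS-stimulated and unstimulated BMDMs 8 of the 23 were higher and 4 lower, against 51.2% of all genes called, and with the block 9 were higher and 6 lower, against 63.2%. Gja1 had a log2FC of 8.45 ± 0.72 (adjusted p = 6.69e-08), or 9.28 without unstimulated replicate 2, and Cd38 of 3.11 ± 0.63 (0.000562), or 5.09 without unstimulated replicate 3. Nt5e was at least 4.76-fold higher (0.0202), a call that was lost without unstimulated replicate 2 (0.0509) or LPS-stimulated replicate 3 (0.0582). P2ry1 was lower with -2.45 ± 0.63 (0.00398), or -1.85 without unstimulated replicate 3, the nucleoside transporter Slc29a3 with -1.49 ± 0.37 (0.00311) and Panx1, an ATP release channel, with -1.19 ± 0.23 (0.000457).

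LPS-tolerant BMDMs differed from LPS-stimulated ones in 6 higher and 5 lower genes of this list, against 34.5% of all genes called, and with the block in 8 higher and 6 lower, against 47.6%. The NAD-consuming enzymes Cd38 (log2FC 5.87 ± 0.39, adjusted p = 9.04e-09) and Bst1 (4.19 ± 0.20, adjusted p = 1.83e-10) and the phosphatase Acpp (4.66 ± 0.89, adjusted p = 0.00058) were higher, and the log2FC of Acpp was 3.85 without LPS-tolerant replicate 1, 4.01 without LPS-stimulated replicate 2 and 5.28 without LPS-stimulated replicate 3. Slc28a2, a nucleoside transporter, was lower with -2.24 ± 0.28 (9.38e-06), the adenosine receptor Adora3 with -2.20 ± 0.49 (0.0022) and Lrrc8a, a subunit of volume-regulated anion channels, with -1.07 ± 0.22 (0.00116). Against LPS-primed BMDMs, P2ry10b was higher (1.05 ± 0.30, adjusted p = 0.0488) and Pnp, purine nucleoside phosphorylase, lower (-0.65 ± 0.18, adjusted p = 0.0382). The call of P2ry10b was lost without any of the 3 LPS-primed libraries or LPS-tolerant replicate 2 or 3 (0.0685 to 0.163) and with library size alone (0.0807), limma-voom (0.0549) or only the groups compared (0.0564). That of Pnp was lost without any of the 3 LPS-primed libraries or LPS-tolerant replicate 1 or 3 (0.0506 to 0.141). In that comparison 2 of the 23 were called against 6.31% of all genes, and 4 with the replicate block against 18%.

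The second response differed from the first in 3 genes of the list that were higher and 7 that were lower, against 23.8% of all genes called, and with the block in 4 and 9, against 36.2%. The positive differences were those of P2ry1 (4.36 ± 0.99), Slc29a3 (1.60 ± 0.52) and Panx1 (1.14 ± 0.33), and the largest negative ones those of Gja1 (-7.46 ± 0.84), Cd38 (-3.68 ± 0.69) and Adora3 (-3.51 ± 0.71). Without unstimulated replicate 3 the differences of P2ry1, Cd38 and Adora3 were 3.78, -5.64 and -4.24, and that of Gja1 was -8.27 without unstimulated replicate 2 and -8.17 without LPS-tolerant replicate 1. The call of Slc29a3 was lost without unstimulated replicate 2 or 3, LPS-primed replicate 1 or 3, LPS-tolerant replicate 2 or LPS-stimulated replicate 1 or 3 (adjusted p of 0.0526 to 0.0865), and with only the groups compared (0.0528).

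Carboplatin gave 0 calls by edgeR among the 23 in either state, while DESeq2 called 1 in each and limma-voom 0. In edgeR 3 of the 23 had an unadjusted p under 0.05 in each state, as had 776 of all tested genes in LPS-primed and 761 in LPS-tolerant BMDMs. Adk, adenosine kinase, was singled out after its values were seen: its log2FC was -1.13 ± 0.25 in LPS-primed (adjusted p = 0.0804) and -1.08 ± 0.26 in LPS-tolerant BMDMs (0.0900). Both adjusted p values were under the 0.25 that the study used for carboplatin, but neither |log2FC| was over 2. Adk was called in both states by DESeq2 (0.00485 and 0.00679) and with the replicate block (0.0145 and 0.0181). The block called 1.77% of all genes in each state, and in LPS-primed BMDMs it also called Enpp1, chosen in the same way. Its log2FC was -1.17 ± 0.43 without the block (adjusted p = 0.456) and -1.18 with it (0.0321). The 3 carboplatin libraries of Enpp1 lay below the 3 others, a separation that was not counted over all genes.

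Of 23 genes reported within 100000 bases of the 10, 16 were tested. In the comparison of LPS-stimulated with unstimulated BMDMs 5 of the 16 neighbours were called higher and 5 lower, against 24.3% and 26.9% of all genes. In that of LPS-tolerant with LPS-primed BMDMs 1 was higher and 1 lower, against 3.6% and 2.71%. LPS-primed against unstimulated BMDMs gave 2 and 2 (all genes 12.1% and 13.1%), and LPS-tolerant against LPS-stimulated BMDMs 3 and 6 (16.2% and 18.3%). The second-minus-first contrast gave 2 and 4 (10.5% and 13.3%). With carboplatin 0 neighbours were called in either state (0.372% and 0.425% of all genes). Gpr171 had at most 4 reads in any library.

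Over the 18 libraries, the tested genes whose log2 CPM followed each of the 10 most closely were found by Pearson's r, as a description over libraries that fall into 6 groups. Adora2b was closest to Zc3h12a (r = 0.989), an RNase that degrades cytokine mRNAs, then to Rhbdf2 (0.987) and Ehd1 (0.986). Adora2a was closest to Marcksl1 (0.984), Tnfaip3 (0.977), which encodes the NF-κB inhibitor A20, and Maff (0.973). P2ry2 was closest to Pofut2 (0.987), Adora2b (0.986) and Ppp2ca (0.983), so that another gene of the list was the second nearest. P2rx7 was closest to Slc45a4 (0.981), Acox3 (0.956) and Exoc6 (0.953), and its neighbour P2rx4 to Appl2 (0.947), Rnf130 (0.940) and the scavenger receptor Cd163 (0.939). Entpd1 was closest to Trf (0.964), the transferrin gene, Fcrls (0.928) and Snx9 (0.923). P2ry6 was closest to 2410002F23Rik (0.928), Optn (0.922) and Rpl12 (0.921), and P2ry14 to Dync2li1 (0.938), Tmem94 (0.936) and Smarca2 (0.930). The low counts of P2ry12, closest to Isoc2a (0.863), Csad (0.863) and Ctso (0.835), and of P2ry13, closest to Ube3b (0.912), 4931406C07Rik (0.871) and Zbed3 (0.859), make these last lists the least certain.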

How the data were processed

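RNA-Seq was performed on 18 BMDM libraries, and the deposited values are raw counts of read pairs per gene symbol. The authors used HISAT2 for alignment, on GRCm39, and HTSeq for counting, and the submitters' processing notes name DESeq2 too. Libraries were made with a stranded mRNA kit. Versions of HISAT2, HTSeq and DESeq2, the annotation used for counting and its strand option are not given in the sources used here. Genes took 53.1% to 58.5% of the deposited counts, and rows that name no gene were left out. P2ry12, P2ry13 and, in unstimulated cells, Adora2a rest on few reads.

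Counts were fitted with edgeR 4.0.16 in R 4.3.3 (TMM, filter at a minimum count of 10 and a total of 15, quasi-likelihood F test, group means over all 18 libraries, Benjamini-Hochberg adjustment over 11305 genes, prior count 0.125). Standard errors were taken from the log2FC and its F value. The code was tested on simulated data. Same-numbered samples deviated together (mean r = 0.349 over 45 pairs, 44 above 0.1), so the numbers in the labels pair the samples. The lowest r, 0.0631, was that of replicate 3 in LPS-primed and LPS-stimulated BMDMs. The main fit did not use this pairing. With the replicate block more of all genes were called, for example 38.6% in place of 25.2% in LPS-primed against unstimulated BMDMs. The text names no shared animal, and p-values measure the spread between these samples.

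Alternatives were DESeq2 1.42.0, limma-voom (limma 3.58.1), RLE or library-size scaling, no filter and the replicate block. Others were only the groups compared, the limits of the study and leaving out each library. These limits were |log2FC| over 2 and, for carboplatin, an adjusted p under 0.25. The 10 genes, the lists and the tests were chosen with earlier results of these data known. All 10 genes are named in every comparison without carboplatin, and only some of them in those with it. Of the 37 other purinergic genes up to 3 called genes per direction with the largest log2FC are named, and for each of the 10 the 3 most similar genes. Positions come from GENCODE vM39, and Acp3 was matched by its older symbol Acpp. A few genes of the marker and neighbour lists are not reported here and were left out of the sums and counts.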

Additional observations from a re-analysis of the deposited data

Results flagged for a closer look

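The response to LPS at 10 ng/ml differed between primed and unprimed BMDMs for 4 of the 10 genes, by the edgeR quasi-likelihood test of the contrast of 4 groups. The difference of log2FC, second minus first dose, was -2.91 for P2ry2 and -6.34 for Adora2b. It was 1.75 for P2rx7, which fell at the first dose and had a log2FC of -0.62 at the second that was not called (adjusted p = 0.16). For Adora2a the fitted difference was -7.45, a value that depends on the prior count because unstimulated BMDMs had 0 to 2 reads, and -6.85 without unstimulated replicate 2. Each of these 4 remained called at an adjusted p under 0.05 in the 19 other fits, namely other tools, scalings and filters, the replicate block and leaving out each library. The difference of P2rx7 is under the |log2FC| limit of the study, which was applied to counts only.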

How the results depend on the processing

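The limits of the study add |log2FC| over 2, and for carboplatin they take an adjusted p under 0.25. With them, Adora2a and Adora2b were called in LPS-primed against unstimulated and in LPS-tolerant against LPS-stimulated BMDMs. In LPS-stimulated against unstimulated BMDMs these 2, P2ry2, P2ry13 and P2rx7 were called, and in LPS-tolerant against LPS-primed BMDMs P2ry13 alone. The share of all genes called at these limits was not computed. Without that limit on the log2FC, P2ry14 was the 1 gene called in the last comparison with limma-voom and in a fit of only the groups compared. When a library was left out, 1 to 2 genes were called. Shares of all genes called in these fits are not given, so these counts stand without that background. Adora2a lost its call there with library size alone (adjusted p = 0.0521), limma-voom (0.0633) and only the groups compared (0.0935). Direction turned for Entpd1 after a single dose (-0.17 with library size alone, and -0.078 to 0.57 when 1 library was left out, the former without unstimulated replicate 1) and in LPS-tolerant against LPS-primed BMDMs (-0.40 to 0.072, with 0.072 without LPS-primed replicate 2 and 0.044 without LPS-tolerant replicate 3). It also turned for P2ry14 in LPS-tolerant against LPS-stimulated BMDMs (-0.35 to 0.032, the latter without LPS-stimulated replicate 1), for P2rx4 with carboplatin in primed cells (-0.35 to 0.028, the latter without LPS-primed replicate 2) and for Adora2b with carboplatin in tolerant cells (-0.0019 to 1.00, the former without replicate 1 of the carboplatin group). None of these 5 was called, and the cause was not tested. The replicate block changed 2 calls among the 10 genes in the comparisons between groups, P2ry6 and P2ry2 as given above. In the second-minus-first contrast it raised the calls from 4 to 5, adding P2rx4 (0.46, adjusted p = 0.0306). Over all named genes, 709 of 759 alternatives of 54 called results kept direction and call, and 50 lost the call. P2ry12 had 9 to 29 reads per library after a single dose, where its log2FC had an SE of 0.59.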
